A study of Homo sapiens with 11 samples.

Results

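The BTB adaptors of CUL3 were followed across 4 groups of HEK293T cells as 70 protein-coding genes of the deposited count table. They were chosen by name alone and comprise 37 KLHL genes, 10 KBTBD genes, 21 KCTD genes and the pair SPOP and SPOPL, out of 58735 genes listed. The choice used no measured value. It also takes in an entry named KBTBD11-OT1, which the table lists as protein-coding and which stood at 0 in all 11 libraries. Another entry of that name, listed as a lincRNA (a long noncoding RNA), is not among the 70 and had 1 to 9 counts per library. Of the 70 genes, 54 passed a filter on low counts and were tested together with 18368 genes in all. The 16 others were KLHL1, KLHL4, KLHL6, KLHL10, KLHL30, KLHL33, KLHL34, KLHL35, KLHL38, KLHL40, KBTBD12, KBTBD13, KBTBD11-OT1, KCTD4, KCTD8 and KCTD14. Among these, 14 had at least 1 count, the largest in any library being 10, and KLHL34 and KBTBD11-OT1 had none, which allows up to 3 counts per library.

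CUL3 is the scaffold of a family of ubiquitin ligases in which the adaptor, a protein with a BTB domain, binds the cullin at one end and the substrate at the other. Kelch repeats (KLHL and KBTBD proteins) or a MATH domain (SPOP and SPOPL) read the substrate, and the RING protein RBX1 brings in the ubiquitin-loaded E2. The ligase is switched on when NEDD8 is attached to the cullin by the E1 made of NAE1 and UBA3 and by the E2 UBE2M. Many adaptors are short-lived proteins whose amounts are set in part after translation, and RNA counts do not report on that. The families are defined by sequence, and not every protein in them recruits CUL3. Several KCTD proteins, among them KCTD1, KCTD12, KCTD15 and KCTD16, are better known for other work.

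HEK293T is a transformed human embryonic kidney line. The compared groups were control cells (n = 3 libraries) and cells taken 48 h after transfection with siRNA against NAE1 (siNAE1, 50 nM, n = 3), against UBE2M (siUBE2M, 70 nM, n = 3), or against URM1, a ubiquitin-like protein (siURM1, 60 nM, n = 2). The agents were given with Lipofectamine RNAiMAX in antibiotic-free medium with serum. The labels give the control cells a control siRNA, and the study's methods and siRNA list name a non-targeting siRNA from a vendor, whose dose is not given in the sources used here. The treatment protocol of these samples lists the targeting siRNAs only, and the study elsewhere codes the control libraries HKWT, so whether the control libraries came from transfected cells is not fully settled by these sources. Replicates are labelled biological without naming separate cultures, so p-values measure the spread between these samples. Levels are given as library-scaled counts (CPM, by the trimmed mean of M values, TMM), which compare a gene between libraries, or as the authors' FPKM, which are per length and compare genes with each other. In bulk RNA, fewer cells with a transcript and less of it per cell cannot be told apart.

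Total counts ranged from 11733163 to 16321391 per library, and the 70 genes held between 0.192% and 0.226% of them. The targets were lowest where labelled. NAE1 averaged 102 ± 5.89 CPM in control and 39.8 ± 4.04 in siNAE1 cells, UBE2M 265 ± 2.68 and 16.8 ± 2.02 in siUBE2M cells, and URM1 53.6 ± 2.32 and 15.3 ± 0.248 in siURM1 cells (SD). Of 5 markers of the line, 4 were present and moved between the groups. In the order control, siNAE1, siUBE2M and siURM1, the mean FPKM was 33.5, 44.7, 64.5 and 56.1 for VIM, 17.7, 40.0, 16.2 and 40.3 for NEFM, and 13.6, 22.6, 15.3 and 14.2 for NEFL. PAX2 stood at 1.59 FPKM in control, 0.846 in siUBE2M and 3.02 in siURM1 cells, and differed from control by -0.08 ± 0.14 (log2, 0.66) in siNAE1 cells. PAX8 was at most 0.0307. The part of these shifts in the adaptor values was not tested. Of the markers of other cells, PTPRC, AFP, ALB and APOA1 stayed at group means of 0.149 FPKM or less. The muscle genes MYOD1 and ACTA1 were low but not absent, and their values stand beside the muscle adaptors below.

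Per unit of length, the most abundant of these transcripts in control cells were KCTD15 (27.6 ± 0.670 FPKM, SD, n = 3) and KCTD3 (27.1 ± 1.11 FPKM). KCTD15 restrains the transcription factor AP-2, and KCTD3 has been described as a partner of an HCN channel. KCTD5, an adaptor for G protein beta subunits, followed at 24.8 ± 0.861 FPKM, then KLHL12, which acts on the COPII coat protein SEC31A, at 23.9 ± 0.258 FPKM. SPOP, an adaptor for GLI factors, came next at 20.1 ± 0.0697 FPKM. KCTD15 and KCTD3 differed by less than their SD and KCTD5 and KLHL12 by about 1 SD, so the order within each pair is not resolved. At the other end, KLHL3 stood at 0.981 ± 0.140 FPKM, KLHL31 at 0.173 ± 0.0577 and KCTD16 at 0.0358 ± 0.0238. A level of at least 1 FPKM in every library was met by 47 of the 70 in control and in siNAE1 cells and by 48 in siUBE2M and in siURM1 cells. Summed over the 70, the level was 384 ± 8.07 FPKM in control, 381 ± 9.08 in siNAE1, 364 ± 4.35 in siUBE2M and 398 ± 10.2 in siURM1 cells. The siUBE2M sum was below and the siURM1 sum above the control sum by more than the control SD, and no test was run on these sums.

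**Figure D1:**
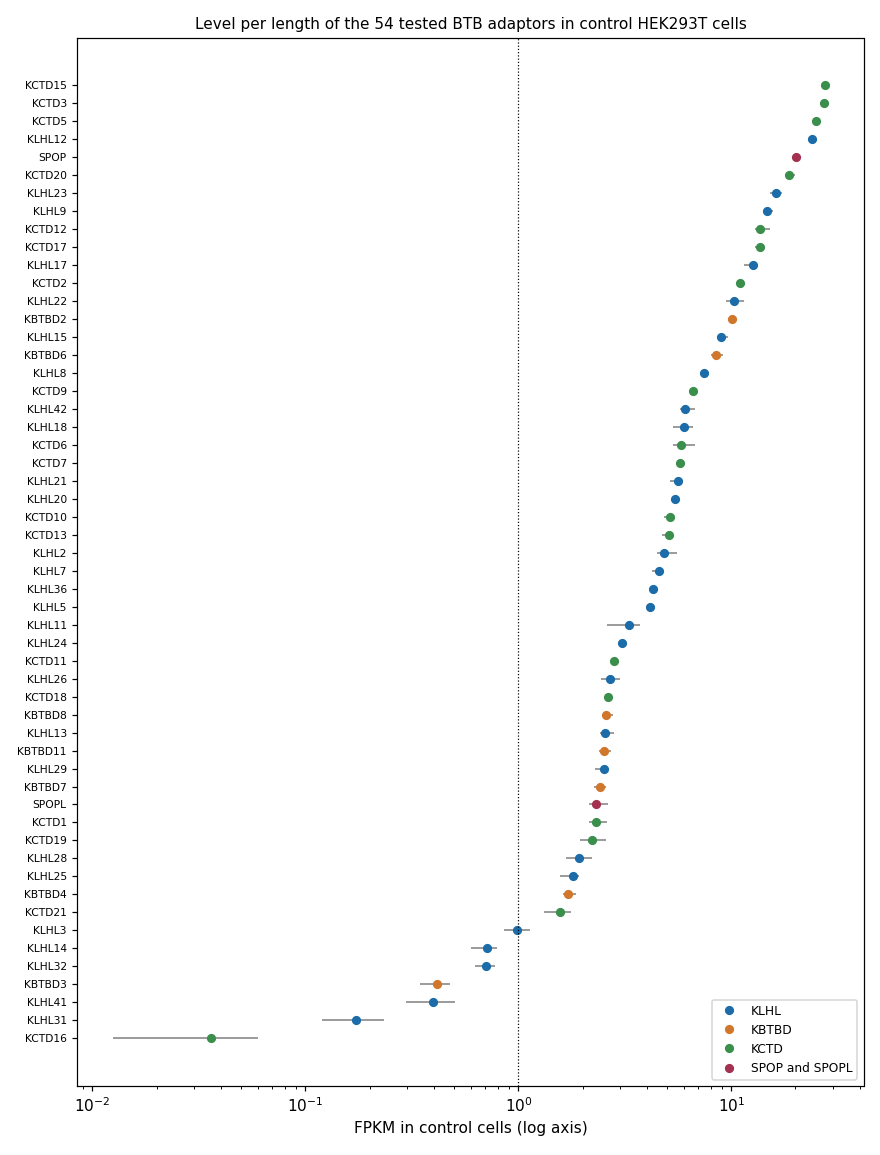
Level of each tested adaptor in control cells, on a log axis of FPKM (the authors' length-scaled and depth-scaled fragment counts), as the mean of 3 libraries with a line from the lowest to the highest library. The values run from 0.0358 for KCTD16 to 27.6 for KCTD15.

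Adaptor transcripts moved both ways in each knockdown, within the KLHL genes and within the KCTD genes alike. In siNAE1 cells 20 of the 54 tested members were higher and 13 lower at a Benjamini-Hochberg adjusted p under 0.05 (edgeR quasi-likelihood test), next to 27.6% of all genes tested that were higher and 27.1% that were lower. In siUBE2M cells 17 were higher and 16 lower, next to 22.7% and 22.6% of all genes. In siURM1 cells 11 were higher and 14 lower, next to 20.8% and 20.8%. The siURM1 counts depended on single libraries, with the ranges given in the closing section. The median log2 difference of the 54 was 0.06 in siNAE1, -0.03 in siUBE2M and -0.0010 in siURM1 cells, and over all genes tested it was -0.0021, 0.0075 and -0.0209. The median size of the change, without its sign, was 0.46, 0.30 and 0.25 for the adaptors and 0.42, 0.34 and 0.34 for all genes. A change of at least 2-fold together with the p threshold defined a differentially expressed gene (DEG), and 8 adaptors met it in siNAE1, 2 in siUBE2M and 2 in siURM1 cells, next to 13.9%, 7.11% and 7.62% of all genes. Without control replicate 2 the siURM1 number was 4, and without siURM1 replicate 2 it was 5. The KLHL genes had 12 higher and 6 lower of 27 tested in siNAE1 cells, the KCTD genes 6 and 5 of 18, and the KBTBD genes 1 and 1 of 7. All 3 comparisons use the same control libraries, so their values are given side by side.

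**Figure D2:**
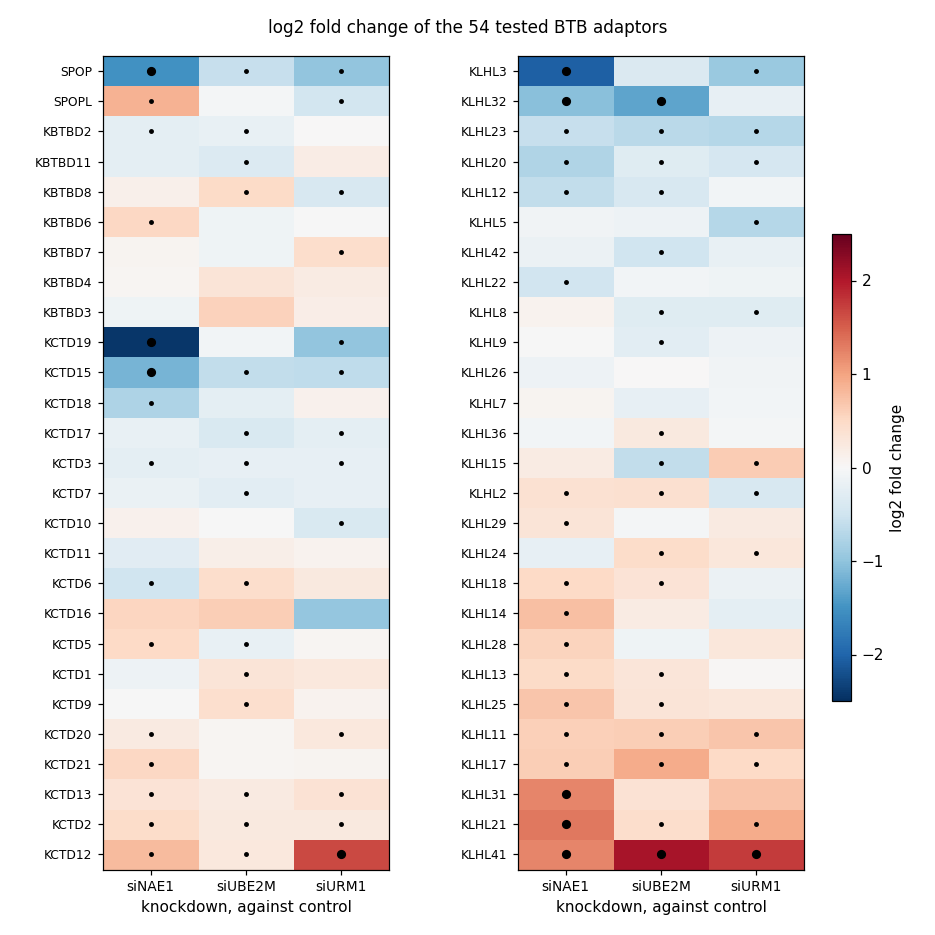
Log2 fold change against control for each tested adaptor (one line per gene) in siNAE1, siUBE2M and siURM1 cells, coloured by sign and size. The values run from -2.44 for KCTD19 in siNAE1 cells to 2.07 for KLHL41 in siUBE2M cells.

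SPOP and SPOPL are close paralogs that can assemble together, SPOP being the more active of the pair. SPOP (ENSG00000121067, chromosome 17, 49598884 to 49678234, minus strand, 10 exons in GENCODE v44) had 129.3, 128.9 and 129.2 CPM in control, 42.63, 49.58 and 43.51 in siNAE1, 90.20, 82.42 and 88.63 in siUBE2M, and 62.28 and 67.33 in siURM1 cells. No group overlapped another, and the order was control, siUBE2M, siURM1, siNAE1. The log2 change was -1.51 ± 0.07 (SE) in siNAE1 (adjusted p = 1.9e-17), -0.57 ± 0.07 in siUBE2M (4.7e-08) and -0.995 ± 0.08 in siURM1 cells (1.2e-11), so the last fell just short of the DEG threshold. SPOPL (ENSG00000144228, chromosome 2, 138501801 to 138573547, plus strand) went the other way after NAE1 knockdown. Its libraries read 14.01, 14.27 and 17.23 CPM in control, 29.04, 31.47 and 22.79 in siNAE1, 15.98, 13.84 and 14.05 in siUBE2M, and 12.17 and 9.905 in siURM1 cells. All siNAE1 libraries lay above and both siURM1 libraries below the control ones, while siUBE2M overlapped them. SPOPL rose by 0.88 ± 0.12 on the log2 scale in siNAE1 (2.5e-07), fell by 0.45 ± 0.15 in siURM1 (0.013) and differed by -0.05 ± 0.13 in siUBE2M cells (0.76). The siURM1 call rests on single libraries: it was -0.34 (adjusted p = 0.086) without control replicate 3 and -0.31 (0.20) without siURM1 replicate 2.

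The 250 bases before an annotated start are shown for this pair and for KLHL21 and KCTD12, which rose in all 3 knockdowns. They are RefSeq promoters on GRCh38.p14, written 5′ to 3′ in the direction of the gene, at chr17:49678164-49678413 (minus) for SPOP, chr2:138501520-138501769 (plus) for SPOPL, chr1:6602870-6603119 (minus) for KLHL21 and chr13:76886406-76886655 (minus) for KCTD12. SPOP has more than 1 annotated start and the first listed is shown. Capitals mark a match to TGACNNNGC, the core of the antioxidant response element, on either strand.
SPOP: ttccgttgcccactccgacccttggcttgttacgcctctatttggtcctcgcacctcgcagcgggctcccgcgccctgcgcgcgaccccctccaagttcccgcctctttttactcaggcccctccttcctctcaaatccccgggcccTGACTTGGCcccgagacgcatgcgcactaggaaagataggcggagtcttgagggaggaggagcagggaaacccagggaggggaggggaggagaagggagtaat
SPOPL: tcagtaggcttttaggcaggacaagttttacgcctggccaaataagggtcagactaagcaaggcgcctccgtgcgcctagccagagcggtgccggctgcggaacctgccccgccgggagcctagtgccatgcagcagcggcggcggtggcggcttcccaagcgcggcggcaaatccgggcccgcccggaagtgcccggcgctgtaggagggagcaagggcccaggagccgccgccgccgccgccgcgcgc
KLHL21: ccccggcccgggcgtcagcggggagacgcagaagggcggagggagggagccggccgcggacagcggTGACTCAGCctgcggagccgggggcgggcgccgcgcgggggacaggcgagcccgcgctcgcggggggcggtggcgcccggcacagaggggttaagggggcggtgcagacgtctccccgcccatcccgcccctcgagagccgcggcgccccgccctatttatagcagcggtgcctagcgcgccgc
KCTD12: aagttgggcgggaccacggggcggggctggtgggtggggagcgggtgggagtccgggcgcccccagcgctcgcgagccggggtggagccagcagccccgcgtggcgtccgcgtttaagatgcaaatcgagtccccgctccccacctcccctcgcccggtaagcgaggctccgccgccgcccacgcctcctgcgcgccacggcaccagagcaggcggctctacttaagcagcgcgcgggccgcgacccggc
The match lay 103 bases before the start of SPOP, which fell in all 3 knockdowns, and 184 bases before that of KLHL21, which rose in all 3. SPOPL and KCTD12 held none of the 5 motifs searched in this window.

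The 5 motifs were searched for, on both strands, in the 72 RefSeq promoter entries of the 55 members that matched by symbol. TGACNNNGC was in 16.7% of them and in 13.3% of all 35116 promoters of the same length. The heat shock element GAANNTTC was in 1.4% against 6.8%, the cAMP response element TGACGTCA in 2.8% against 1.8%, the C/EBP-ATF element TGATGNAA in 2.8% against 3.6%, and the E-box CACGTG in 4.2% against 7.3%. In 0 of the 72 entries did matches to different motifs overlap. The members with TGACNNNGC were KCTD2, KCTD6, KCTD20, KLHL12, KLHL13, KLHL15, KLHL18, KLHL21, KLHL32, KLHL40 and SPOP. KLHL40 was not tested, and the others went in different directions, with SPOP lower and KLHL21 higher in all 3 knockdowns. A match is a description of the letters and not a site of binding.

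Of the 6 tested adaptors with roles in mitosis and the cytoskeleton (KLHL9, KLHL13, KLHL18, KLHL21, KLHL22 and KLHL42), 3 were higher and 1 lower in siNAE1, 3 and 2 in siUBE2M, and 1 and 0 in siURM1 cells. Over all genes the shares higher and lower were 27.6% and 27.1%, 22.7% and 22.6%, and 20.8% and 20.8%, and with 6 genes nothing is read from the difference. KLHL21 changed most in siNAE1 and in siURM1 cells. With KLHL9 and KLHL13 it is known for guiding CUL3 to Aurora B on mitotic chromosomes and the spindle midzone. KLHL21 (ENSG00000162413, chromosome 1, 6590724 to 6614607, minus strand) had 40.33, 35.67 and 41.14 CPM in control, 97.86, 90.90 and 103.3 in siNAE1, 50.00, 51.01 and 58.57 in siUBE2M, and 77.69 and 70.37 in siURM1 cells. The 4 groups did not overlap, and their order was that of SPOP turned around. The log2 change was 1.32 ± 0.08 in siNAE1 (adjusted p = 7.3e-15), 0.45 ± 0.08 in siUBE2M (4.4e-05) and 0.92 ± 0.09 in siURM1 cells (5.3e-10). Its gene overlaps PHF13 on the other strand by 923 bases, and it is not stated whether counting used the strand. PHF13 was higher by 0.53 ± 0.07, 0.43 ± 0.07 and 0.36 ± 0.08 in the same order, so it changed less than KLHL21 in siNAE1 and in siURM1 cells, and its part in the KLHL21 values was not tested. KLHL9 and KLHL13, close relatives of each other, had smaller values. KLHL9 averaged 84.9 ± 4.93 CPM in control and 84.6 ± 3.87 in siNAE1 cells, and fell by 0.27 ± 0.08 in siUBE2M cells (0.0043; -0.19 and 0.051 without siUBE2M replicate 3). KLHL13 rose by 0.48 ± 0.11 in siNAE1 cells (0.00029) and by 0.31 ± 0.11 in siUBE2M cells (0.018), the latter not called without any of control replicates 1 and 2 and siUBE2M replicate 3 (adjusted p from 0.062 to 0.068).

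KLHL12 and KLHL20 both fell in siNAE1 cells. KLHL12 (ENSG00000117153) was at 84.90, 85.35 and 86.13 CPM in control, 56.00, 56.22 and 56.07 in siNAE1, 65.02, 61.90 and 68.05 in siUBE2M, and 83.56 and 80.14 in siURM1 cells. The replicates were close together, and the siNAE1 and siUBE2M libraries were clear of the rest. The log2 change was -0.61 ± 0.07 in siNAE1 (6.7e-09) and -0.40 ± 0.07 in siUBE2M cells (1.5e-05), and the siURM1 difference of -0.06 ± 0.08 did not pass (0.55). KLHL20, the adaptor for DAPK1, PML and ULK1, named here after its values were seen, fell by 0.76 ± 0.12 in siNAE1 (3.0e-06), 0.30 ± 0.12 in siUBE2M (0.036) and 0.42 ± 0.13 in siURM1 cells (0.010). Its siUBE2M call was lost without any of control replicates 1, 2 and 3 and siUBE2M replicates 1 and 3 (adjusted p from 0.051 to 0.29), and its siURM1 call without siURM1 replicate 1 (-0.35, 0.12).

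KLHL3 and KLHL2 are related adaptors that bring WNK kinases, regulators of salt transport, to CUL3. They moved apart in siNAE1 cells and both fell in siURM1 cells. KLHL3 (ENSG00000146021, chromosome 5, 137617500 to 137736090, minus strand) had 13.59, 10.15 and 11.48 CPM in control, 3.073, 2.587 and 2.960 in siNAE1, 11.41, 8.852 and 7.374 in siUBE2M, and 5.429 and 6.996 in siURM1 cells. The siNAE1 libraries were lowest, the siURM1 ones next, and siUBE2M overlapped control. The log2 change was -2.03 ± 0.19 in siNAE1 (1.3e-10) and -0.92 ± 0.19 in siURM1 cells (0.00019). In siUBE2M cells it was -0.35 ± 0.16 (0.074), and it passed without control replicate 2 (-0.44, 0.046) or siUBE2M replicate 1 (-0.52, 0.018). KLHL2 (ENSG00000109466, chromosome 4, 165207618 to 165323156, plus strand) read 17.75, 17.46 and 21.58 CPM in control, 22.35, 27.55 and 23.95 in siNAE1, 26.21, 25.05 and 23.67 in siUBE2M, and 13.17 and 15.65 in siURM1 cells. It rose by 0.38 ± 0.11 in siNAE1 (0.0039) and 0.40 ± 0.11 in siUBE2M cells (0.0032) and fell by 0.40 ± 0.13 in siURM1 cells (0.013). The siURM1 fall was not called without control replicate 3 (-0.28, 0.11) or siURM1 replicate 1 (-0.27, 0.22). KLHL2 overlaps TMEM192 by 932 bases on the other strand and has a pseudogene copy, so shared fragments are possible. Of their kinase substrates, WNK1 averaged 261 ± 22.1 CPM in control, 218 ± 17.8 in siNAE1, 222 ± 18.1 in siUBE2M and 253 ± 30.3 in siURM1 cells. It fell by 0.26 ± 0.07 in siNAE1 (0.0033) and 0.23 ± 0.07 in siUBE2M cells (0.010) and differed by -0.05 ± 0.08 in siURM1 cells (0.70). Its siUBE2M call was lost without control replicates 1 or 3 or siUBE2M replicate 3 (adjusted p from 0.057 to 0.076). The scarcer WNK4 averaged 4.19 ± 0.904 CPM in control, 6.60 ± 1.84 in siNAE1, 6.21 ± 1.13 in siUBE2M and 1.47 ± 0.124 in siURM1 cells, a log2 change of 0.64 ± 0.22 (0.013), 0.56 ± 0.21 (0.031) and -1.50 ± 0.30 (0.00011). Its siNAE1 call was lost without control replicate 1 (0.53, 0.064) or siNAE1 replicate 3 (0.43, 0.12), and its siUBE2M call without control replicates 1 or 3 or siUBE2M replicate 1 (adjusted p from 0.098 to 0.17).

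**Figure D3:**
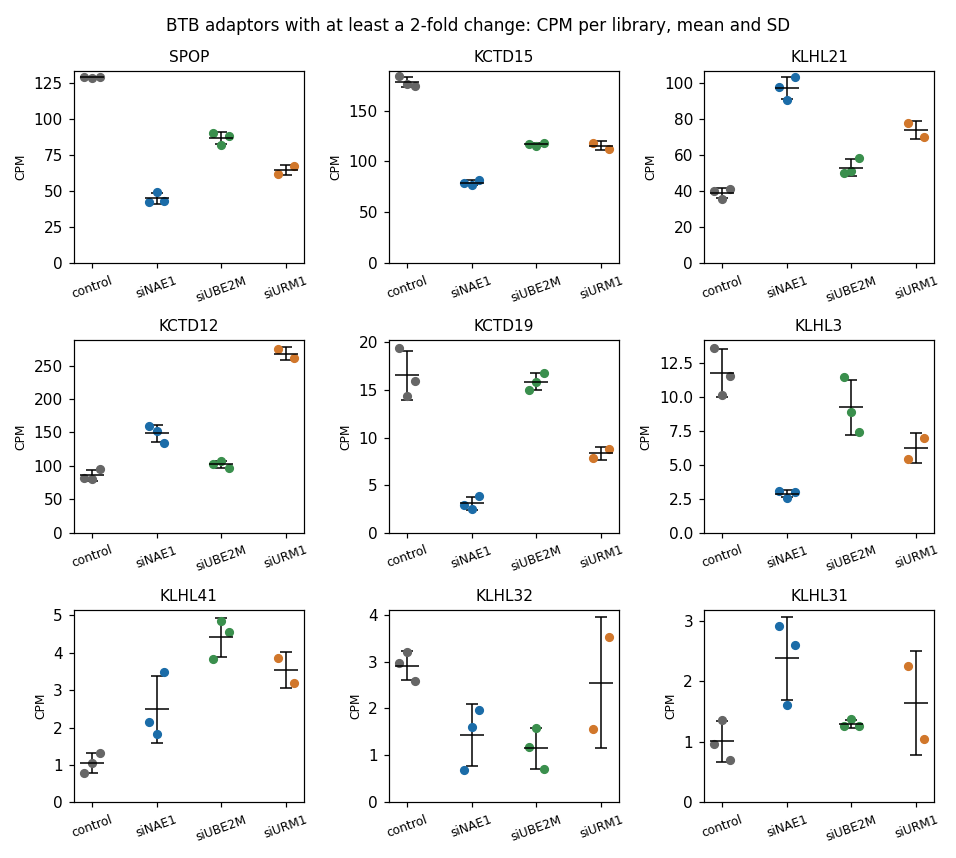
CPM in each of the 11 libraries for the adaptors with at least a 2-fold change and adjusted p under 0.05 in a knockdown, one panel per gene, with the group mean and SD. The siNAE1 points of SPOP sit between 42.63 and 49.58 against 128.9 to 129.3 in control, and those of KLHL21 between 90.90 and 103.3 against 35.67 to 41.14.

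KCTD12 had the largest rise after URM1 knockdown of any tested member apart from KLHL41. KCTD12 (ENSG00000178695, chromosome 13, 76880166 to 76886390, minus strand, a single exon) is an auxiliary subunit of GABA-B receptors in neurons. It had 82.18, 80.62 and 94.71 CPM in control, 159.7, 152.2 and 134.7 in siNAE1, 102.9, 107.8 and 96.35 in siUBE2M, and 275.0 and 260.7 in siURM1 cells. Every knockdown library lay above every control library, and the siURM1 pair stood highest. The log2 change was 0.80 ± 0.07 in siNAE1 (6.2e-11), 0.25 ± 0.07 in siUBE2M (0.0049) and 1.64 ± 0.08 in siURM1 cells (3.9e-17). Its relatives in the receptor were scarce: KCTD16 had at most 1.178 CPM in any library and differed by 0.54 ± 0.61, 0.61 ± 0.59 and -0.96 ± 0.79 with no call, and KCTD8 had at most 10 counts and was not tested.

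KCTD15 and KCTD1, which repress AP-2 in neural crest and skin, did not move together. KCTD15 (ENSG00000153885, chromosome 19, 33795933 to 33815763, plus strand) had 183.7, 175.6 and 174.2 CPM in control, 78.58, 77.27 and 81.81 in siNAE1, 117.2, 115.1 and 118.3 in siUBE2M, and 118.4 and 112.1 in siURM1 cells. All knockdown libraries were below control, siNAE1 lowest, with siUBE2M and siURM1 overlapping each other. It fell by 1.17 ± 0.06, 0.61 ± 0.06 and 0.63 ± 0.07 on the log2 scale (2.4e-16, 1.0e-09 and 7.9e-09). KCTD1 averaged 20.7 ± 2.35 CPM in control and 26.0 ± 3.18 in siUBE2M cells, a rise of 0.33 ± 0.11 (0.012) that was lost without control replicate 1 (0.29, 0.056) or siUBE2M replicate 2 (0.24, 0.10), and it differed by -0.14 ± 0.11 (0.31) in siNAE1 and 0.26 ± 0.12 (0.085) in siURM1 cells, the last passing without control replicate 3 (0.36, 0.024). KBTBD8, the adaptor that modifies TCOF1 and NOLC1 during neural crest formation, rose by 0.47 ± 0.12 in siUBE2M (0.0016) and fell by 0.41 ± 0.14 in siURM1 cells (0.022). The KBTBD8 fall was not called without control replicate 3 (-0.34, 0.084), without siURM1 replicate 2 (-0.31, 0.21), or in DESeq2 with 2 groups per fit. Its substrate transcript TCOF1, a nucleolar factor, went from 425 ± 11.8 CPM in control to 361 ± 19.0, 317 ± 4.14 and 204 ± 3.80, log2 changes of -0.23 ± 0.06, -0.42 ± 0.06 and -1.06 ± 0.07 (0.00073, 2.4e-07 and 3.1e-14). The other substrate transcript, NOLC1, went another way and rose by 0.70 ± 0.05 in siNAE1 cells (1.5e-12). NOLC1 differed by 0.07 ± 0.05 in siUBE2M (0.33) and fell by 0.26 ± 0.06 in siURM1 cells (9e-04).

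KCTD5, KCTD2 and KCTD17 form one branch of the family, KCTD5 and KCTD2 acting on G protein beta subunits and KCTD17 on trichoplein at the cilium. KCTD5 (ENSG00000167977) had 82.90, 87.88 and 86.26 CPM in control, 114.4, 126.8 and 123.3 in siNAE1, 74.30, 73.05 and 77.74 in siUBE2M, and 86.43 and 90.18 in siURM1 cells. The siNAE1 libraries were above all others and the siUBE2M ones below all others. It rose by 0.50 ± 0.07 in siNAE1 (1.0e-07) and fell by 0.19 ± 0.07 in siUBE2M cells (0.020), with 0.04 ± 0.07 in siURM1 cells (0.68). The siUBE2M fall was small and not called without control replicates 2 or 3 or siUBE2M replicates 1 or 2 (adjusted p from 0.064 to 0.10). KCTD2 rose in all 3 knockdowns, by 0.45 ± 0.07, 0.25 ± 0.07 and 0.24 ± 0.08 (1.9e-06, 0.0041 and 0.012), the last not without siURM1 replicate 1 (0.21, 0.12). It overlaps ATP5PD by 8123 bases on the other strand, and the part of that gene's fragments was not tested. KCTD17 fell by 0.39 ± 0.09 in siUBE2M cells (0.00059). Its siURM1 value of -0.24 ± 0.10 (0.046) lost the call in both DESeq2 fits, under the replicate block and without any of control replicates 1, 2 and 3, siUBE2M replicates 1 and 2 and siURM1 replicate 2 (adjusted p from 0.050 to 0.37).

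KCTD10, KCTD13, KBTBD6, KBTBD7 and KCTD6 stayed below the DEG threshold. KCTD10 and KCTD13, which with TNFAIP1 send RHOA or RHOB for ubiquitination, differed in pattern: KCTD13 rose by 0.35 ± 0.09, 0.23 ± 0.09 and 0.36 ± 0.09 (0.00093, 0.030 and 0.0025), and KCTD10 fell by 0.37 ± 0.09 in siURM1 cells (0.00096) with 0.11 ± 0.08 and -0.01 ± 0.08 in siNAE1 and siUBE2M cells. The KCTD13 call in siUBE2M cells was lost without control replicate 3 or without siUBE2M replicates 2 or 3 (adjusted p from 0.089 to 0.12), and that in siURM1 cells without siURM1 replicate 1 (0.30, 0.055). KCTD13 overlaps ASPHD1 by 14853 bases on the other strand. ASPHD1 had 74 to 86 counts in the control libraries and 163 and 152 in siURM1, and the part of its fragments was not tested. KBTBD6 and KBTBD7, which act as a pair on the RAC activator TIAM1, split between knockdowns. KBTBD6 had 44.1 ± 3.21 CPM in control and 62.7 ± 4.97 in siNAE1 cells, a rise of 0.51 ± 0.08 (3.1e-06), with -0.11 ± 0.08 and -0.02 ± 0.09 in the other two. KBTBD7 had 11.6 ± 0.841 CPM in control and 15.7 ± 0.0952 in siURM1 cells, a rise of 0.44 ± 0.13 (0.0058), with 0.07 ± 0.12 and -0.11 ± 0.12 in siNAE1 and siUBE2M cells. It overlaps AL354696.2 by 4734 bases on the other strand, and the part of that gene's fragments was not tested either. KCTD6, which with KCTD11 and KCTD21 acts on HDAC1 in Hedgehog signalling, had 20.95, 16.36 and 16.66 CPM in control, 11.75, 14.40 and 11.75 in siNAE1, 24.52, 22.75 and 25.56 in siUBE2M, and 19.78 and 22.79 in siURM1 cells. It fell by 0.50 ± 0.12 in siNAE1 (0.00073) and rose by 0.43 ± 0.11 in siUBE2M cells (0.0022), and the siURM1 libraries overlapped control (0.24 ± 0.13, 0.13), a difference that passed without control replicate 1 (0.37, 0.028). KCTD21 went the other way in siNAE1 cells, with a rise of 0.51 ± 0.18 (0.019) though its libraries overlapped control. It had no call in the other knockdowns, and KCTD11 had none in any.

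KLHL15, the adaptor for the phosphatase subunit PPP2R5B, moved in opposite directions in siUBE2M and siURM1 cells. KLHL15 (ENSG00000174010, chromosome X, 23983720 to 24027186, minus strand) had 54.40, 53.62 and 61.14 CPM in control, 70.82, 69.02 and 54.90 in siNAE1, 39.62, 38.75 and 31.88 in siUBE2M, and 91.42 and 83.19 in siURM1 cells. The siUBE2M libraries were below and the siURM1 libraries above every other library. It fell by 0.62 ± 0.09 in siUBE2M (2.1e-06) and rose by 0.63 ± 0.10 in siURM1 cells (3.5e-06). In siNAE1 cells it differed by 0.21 ± 0.09 (0.053), and this passed without siNAE1 replicate 3 (0.31, 0.0040), whose library read lower than the other siNAE1 libraries, and without some others.

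The muscle adaptors KLHL41 and KLHL31 were higher at very low levels. KLHL41, a partner of nebulin in the sarcomere, read 0.7850, 1.045 and 1.325 CPM in control, 2.151, 1.818 and 3.499 in siNAE1, 3.829, 4.852 and 4.565 in siUBE2M, and 3.869 and 3.186 in siURM1 cells. Every knockdown library lay above every control library. It rose by 1.22 ± 0.31 (0.0015), 2.07 ± 0.29 (5.8e-07) and 1.74 ± 0.32 (4.4e-05) on the log2 scale, and was a DEG in all 3 knockdowns. Its gene shares 16221 bases on the same strand with the protein-coding gene AC093899.2, which stood at 0 counts in every library. Whether fragments that fit both genes went uncounted was not tested. KLHL31 averaged 1.00 ± 0.331 CPM in control and 2.38 ± 0.684 in siNAE1 cells, a rise of 1.22 ± 0.37 (0.0060), and differed by 0.37 ± 0.39 and 0.72 ± 0.42 without a call in the others. The other muscle adaptors, KLHL40, KLHL30 and KBTBD13, had too few counts for a test. Of the muscle markers, MYOD1 averaged 0.665 FPKM in control, 1.15 in siNAE1, 0.701 in siUBE2M and 0.557 in siURM1 cells, and ACTA1 0.813, 0.822, 1.91 and 0.784 FPKM. Whether these bear on the KLHL41 values was not tested.

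KCTD19, a protein of meiotic germ cells, showed the largest fall of any tested member. KCTD19 (ENSG00000168676, chromosome 16, 67289428 to 67326763, minus strand) had 19.38, 14.39 and 15.90 CPM in control, 2.919, 2.517 and 3.857 in siNAE1, 15.02, 15.87 and 16.78 in siUBE2M, and 7.863 and 8.797 in siURM1 cells. The siNAE1 libraries were lowest, siURM1 lay between, and siUBE2M overlapped control. The log2 change was -2.44 ± 0.16 (6.1e-14), -0.06 ± 0.13 (0.74) and -0.99 ± 0.16 (4.6e-06). The gene overlaps PLEKHG4 on the other strand by 72 bases, and PLEKHG4 had 1780 to 1952 counts in the control libraries where KCTD19 had 234 to 321. PLEKHG4 fell by 2.03 ± 0.08 in siNAE1, 1.15 ± 0.08 in siUBE2M and 0.76 ± 0.08 in siURM1 cells, so in siUBE2M cells it fell where KCTD19 did not pass. The part of shared fragments was not tested.

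KLHL23, KLHL11 and KLHL32 are kelch proteins of less certain function. KLHL23 fell in all 3 knockdowns, by 0.58 ± 0.08, 0.68 ± 0.08 and 0.71 ± 0.09 (1.6e-07, 1.5e-08 and 8.0e-08), from 89.9 ± 5.65 CPM in control to 59.9 ± 5.79, 56.1 ± 3.31 and 54.8 ± 3.11. It shares 7221 bases with PHOSPHO2 on the same strand, which also fell, by 0.55 ± 0.18, 1.20 ± 0.19 and 1.00 ± 0.21 (0.012, 5.5e-06 and 0.00028; the first lost without control replicate 3, -0.43, 0.084), and the counts of the pair may be split between them. KLHL11 rose by 0.59 ± 0.17, 0.61 ± 0.17 and 0.70 ± 0.18 (0.0032, 0.0031 and 0.0021), from 7.92 ± 1.49 CPM to 11.9 ± 3.05, 12.1 ± 1.22 and 12.8 ± 2.54. Without siNAE1 replicate 1 its siNAE1 value was 0.39 (0.064), and without siURM1 replicate 1 its siURM1 value was 0.48 (0.11). KLHL32 had 2.92 ± 0.308 CPM in control and fell by 1.04 ± 0.36 in siNAE1 (0.015) and 1.33 ± 0.37 in siUBE2M cells (0.0035), with siURM1 libraries at 1.560 and 3.533 CPM on both sides of control. The siNAE1 fall was -0.71 (0.11) without siNAE1 replicate 1. KCTD3, among the most abundant members, was lower by 0.25 ± 0.07, 0.21 ± 0.07 and 0.21 ± 0.07 (0.0018, 0.0091 and 0.027), and its siUBE2M call was lost without control replicate 3 (-0.18, 0.060). Its siURM1 call was lost without control replicates 1 (-0.20, 0.068) or 3 (-0.16, 0.12) or siURM1 replicate 2 (-0.15, 0.26).

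The members that passed in opposite directions in a pair of knockdowns are described by the differences between those knockdowns. They were chosen by this pattern, so no p is given for them. SPOPL was higher in siNAE1 than in siURM1 cells by 1.33 ± 0.14 on the log2 scale, and KLHL2 by 0.78 ± 0.13. KLHL15 was lower in siUBE2M than in siURM1 cells by 1.25 ± 0.10, while KLHL2 was higher there by 0.80 ± 0.13 and KBTBD8 by 0.88 ± 0.14. KCTD5 was higher in siNAE1 than in siUBE2M cells by 0.70 ± 0.07, and KCTD6 lower by 0.94 ± 0.12. Over all tested members, 30 of 54 passed between siNAE1 and siURM1 cells, 24 between siUBE2M and siURM1 cells and 34 between siNAE1 and siUBE2M cells, next to 38.6%, 35.0% and 44.3% of all genes. At least a 2-fold difference was met by SPOPL, KCTD19 and KLHL3 in the first pair, by KCTD12, KLHL15 and KLHL32 in the second, and by KCTD19 and KLHL3 in the third, next to 6.76%, 5.41% and 7.84% of all genes. Of these, KLHL32 rests on single libraries, since its difference of -1.12 ± 0.41 (0.032) was -0.43 (0.59) without siURM1 replicate 2, -1.14 (0.058) without siUBE2M replicate 1 and -0.86 (0.12) without siUBE2M replicate 3. Without siURM1 replicate 1 the first pair had 5 such members, and the third had 5 without siNAE1 replicate 2 and 4 without siNAE1 replicate 3.

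**Figure D4:**
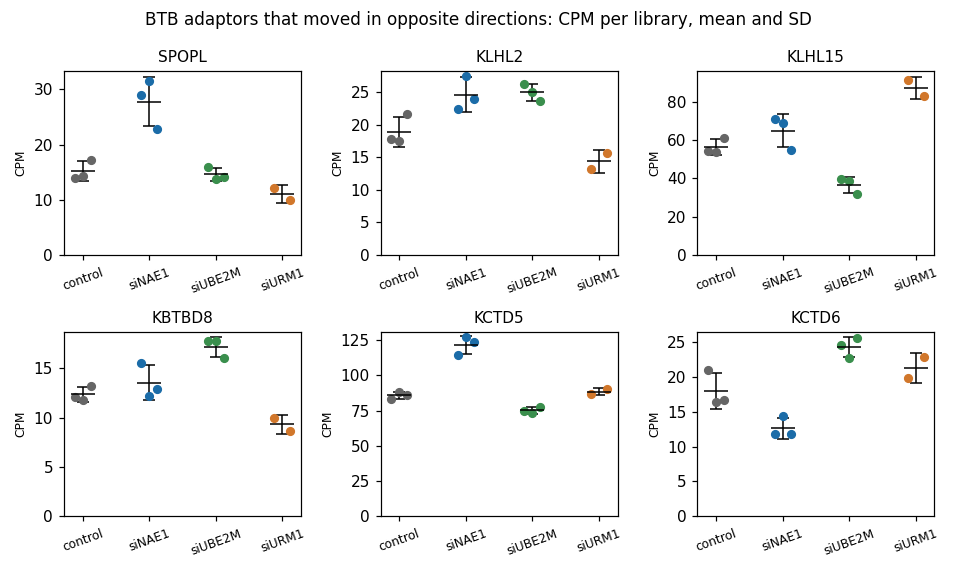
CPM in each of the 11 libraries for the 6 adaptors that passed in opposite directions in a pair of knockdowns, with the group mean and SD. KLHL15 libraries read 31.88 to 39.62 in siUBE2M and 83.19 to 91.42 in siURM1 cells, on either side of 53.62 to 61.14 in control.

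The rest of the CUL3 machinery was read from lists of other genes. Of 18 genes of the ligase core and the NEDD8 cycle, 5 were higher and 7 lower in siNAE1, 6 and 7 in siUBE2M, and 6 and 5 in siURM1 cells. The siRNA targets NAE1 and UBE2M are in this list and URM1 is not: NAE1 is one of the lower genes in siNAE1 cells, and UBE2M is one in each of the knockdowns, though its small siNAE1 difference (-0.16 ± 0.06, 0.029) was not called without any of control replicates 1, 2 and 3 and siNAE1 replicates 1 and 2 (adjusted p from 0.055 to 0.097). The shares of all genes higher and lower were 27.6% and 27.1%, 22.7% and 22.6%, and 20.8% and 20.8%, and nothing particular to these genes or to those of the next lists is read from the counts. CUL3 itself had 79.3 ± 0.252 CPM in control, 72.8 ± 5.84 in siNAE1, 75.5 ± 2.84 in siUBE2M and 65.1 ± 2.40 in siURM1 cells, and only the last difference passed (-0.28 ± 0.08, 0.0047; -0.24 and 0.075 without siURM1 replicate 2). The siNAE1 difference of -0.12 ± 0.07 (0.15) passed without siNAE1 replicate 2 (-0.19, 0.043). RBX1 rose by 0.77 ± 0.07, 0.22 ± 0.07 and 0.52 ± 0.08 (5.5e-11, 0.013 and 2.1e-06), the siUBE2M call being lost without control replicate 1 (0.18, 0.074) or siUBE2M replicate 3 (0.15, 0.11). SENP8, the protease that matures and removes NEDD8, fell in all 3 knockdowns, with log2 changes of -1.50 ± 0.16, -0.70 ± 0.15 and -0.67 ± 0.17 (2.1e-09, 0.00025 and 0.0015). Of 21 tested BTB adaptors outside these name families, 5 were higher and 8 lower in siNAE1, 5 and 8 in siUBE2M, and 8 and 3 in siURM1 cells, next to the same shares of all genes (27.6% and 27.1%, 22.7% and 22.6%, and 20.8% and 20.8%). KEAP1, the adaptor that holds NRF2 in check, differed by -0.08 ± 0.07, -0.07 ± 0.07 and 0.01 ± 0.08 with no call. TNFAIP1 rose by 0.37 ± 0.07 in siUBE2M and 0.44 ± 0.08 in siURM1 cells (0.00014 and 5.9e-05), and its siNAE1 value of 0.18 ± 0.08 (0.049) lost the call in both DESeq2 fits (0.057 and 0.089) and without several single libraries. The kelch gene IPP was a DEG in siNAE1 cells (-1.33 ± 0.13, 1.2e-10) and RCBTB2 in siURM1 cells (-1.73 ± 0.27, 4.5e-06). IVNS1ABP, another of the 21, rose in all 3 knockdowns without reaching 2-fold, by 0.64 ± 0.065, 0.95 ± 0.064 and 0.84 ± 0.071 (5.3e-10, 1.7e-13 and 2.6e-11). Among 37 transcripts of known protein substrates, 13 were higher and 12 lower in siNAE1, 11 and 11 in siUBE2M, and 8 and 9 in siURM1 cells, next to those same shares. EIF4EBP1, the translation repressor targeted by KLHL25, fell in all 3 knockdowns, with -1.50 ± 0.07, -1.04 ± 0.07 and -0.60 ± 0.07 (2.6e-18, 2.8e-14 and 5.5e-08). RHOB, a substrate of the KCTD10 branch, rose by 0.67 ± 0.06 in siNAE1 and 0.98 ± 0.07 in siURM1 cells and fell by 0.53 ± 0.06 in siUBE2M cells (8.1e-11, 2.7e-13 and 2.6e-08). RHOA, the other substrate named for this branch, rose in all 3 knockdowns, by 0.45 ± 0.06, 0.72 ± 0.06 and 0.82 ± 0.06 (3.7e-08, 4.4e-12 and 2.2e-12). The substrate transcripts given with values are only some of those called. DAPK1, a death-associated kinase bound by KLHL20, rose by 0.32 ± 0.09 in siNAE1 and 0.99 ± 0.08 in siUBE2M cells and fell by 0.31 ± 0.10 in siURM1 cells (0.0020, 2.9e-11 and 0.013). The siURM1 fall was not called without control replicates 1 or 3 or siURM1 replicate 2 (adjusted p from 0.071 to 0.14). TIAM1, the substrate of KBTBD6 and KBTBD7, rose by 0.85 ± 0.09 in siNAE1 and fell by 0.50 ± 0.11 in siURM1 cells (9.7e-10 and 0.00022), and differed by -0.21 ± 0.09 in siUBE2M cells (0.058), which passed without control replicate 1 (-0.27, 0.037) or siNAE1 replicate 3 (-0.22, 0.029).

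Gene structure was described over the members after their values had been seen. By GENCODE v44, 11 of the 70 have their whole coding sequence in 1 exon, and 8 of these were tested, namely KCTD11, KCTD12, KCTD21, KBTBD6, KBTBD7, KBTBD11, KLHL9 and KLHL25. In siNAE1 cells 4 of the 8 were higher and 0 lower (median log2 difference 0.29), against 16 and 13 of the 46 others (median 0.02) and 27.6% and 27.1% of all genes. In siUBE2M cells the 8 had 2 higher and 2 lower (median -0.0272) and the others 15 and 14 (median -0.0298), next to 22.7% and 22.6%. In siURM1 cells the 8 had 2 higher and 0 lower (median 0.14) and the others 9 and 14 (median -0.06), next to 20.8% and 20.8%. The split was chosen after the values were seen, and nothing particular to the 8 is read from it.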

How the data were processed

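Poly(A) RNA of 11 HEK293T libraries was sequenced as 150-base pairs from a strand-specific kit on a NovaSeq X Plus. According to the processing notes, the authors cleaned reads by fastp, mapped them by HISAT2 2.0.5 on GRCh38 and assigned fragments to genes by featureCounts 1.5.0-p3. The deposited counts are raw whole numbers. The deposited FPKM values are the authors' scaling of them by gene length and library. DESeq2 1.20.0 is also named in their processing notes. The strand setting and the annotation version of the counting are not given in the sources used here.

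The members were chosen by gene name. The members, the gene lists and the tests were chosen with earlier results of these data known, and the 5 motifs and the split by coding exons after the values had been seen. The count test was edgeR 4.0.16 in R 4.3.3 (filterByExpr, TMM, one quasi-likelihood fit of 4 groups, 18368 genes, Benjamini-Hochberg adjustment over all of them). A p-value in parentheses after a log2 change is this adjusted p, and errors on log2 changes are standard errors. The SE of the siURM1 group, with 2 libraries, draws on the spread of the other groups, and the biological coefficient of variation was 7.06%. Total counts of 11733163 to 16321391 limit the precision at low levels, and a floor of 3 counts covers counting error only. On simulated siNAE1 and control counts for 17503 genes, 200 changed genes were planted, and edgeR and DESeq2 each recovered 200 with 1 and 0 false calls. The planted changes were all larger than 2-fold and left out the scarcest genes, and every gene was given the same spread. Recovery of smaller changes, or of changes in scarcer genes, was not simulated.

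Members named with values were those with a 2-fold change and adjusted p under 0.05 in a knockdown and at least 1 CPM, the 5 highest in control FPKM, the 5 that passed one way in all knockdowns with the largest smallest change, those that passed in opposite directions in a pair of knockdowns and in the test between them, and sets of close relatives listed by name. KLHL20, KCTD11, KCTD21, PLEKHG4, PHF13, PHOSPHO2, NOLC1, RHOA and IVNS1ABP were added after their values were seen. The pathway lists were the CUL3 core with the NEDD8 cycle, other BTB adaptors, and known protein targets.

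Results were recomputed with DESeq2 1.42.0 (all 4 groups, or each pair alone), RLE factors, edgeR on each pair of groups, a count filter of none or of 10 in each library, a replicate block, glmTreat, protein-coding genes, CPM per kilobase, an FPKM of at least 0.1, and leaving out each library. Thinning of the counts to the smallest library was added after seeing the data. Figures used matplotlib 3.10.9 and pandas 2.3.3 under Python 3.11.15. Protein sequences, the siRNA sequences and the other experiments of the study were not used here.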

Additional observations from a re-analysis of the deposited data

Results flagged for a closer look

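These members were picked out because they passed in opposite directions against the shared control and differed between the knockdowns in edgeR's fit, so the differences are given as a description. Between siNAE1 and siURM1 cells the log2 difference was 1.33 for SPOPL and 0.78 for KLHL2. Between siUBE2M and siURM1 cells it was -1.25 for KLHL15, 0.80 for KLHL2 and 0.88 for KBTBD8. Between siNAE1 and siUBE2M cells it was 0.70 for KCTD5 and -0.94 for KCTD6. The opposite signs of SPOPL, KLHL2 and KBTBD8 against control include a siURM1 call that single libraries decide, and that of KCTD5 includes a small siUBE2M call that single libraries decide, as given with their values. No group held 4 or more libraries, so no test for a library standing apart was made.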

How the results depend on the processing

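Over 300 comparisons of named genes and 5986 values under the alternatives, 5781 stayed on their side of the threshold, 172 lost a call, 33 gained one and 0 changed direction. Where leaving out 1 library ended a call against control of these genes that the text describes, this stands beside the call. KCTD11, KCTD21, NOLC1, RHOA and IVNS1ABP were not among the genes recomputed. Counts of members with a 2-fold change depended on the rule: when a change of more than 2-fold was itself tested (glmTreat), they went from 8 to 5 in siNAE1, from 2 to 1 in siUBE2M and from 2 to 1 in siURM1 cells, and between the knockdowns from 3 to 0 (siNAE1 against siURM1) and from 3 to 1 (siUBE2M against siURM1). With at least 10 counts in every library the siUBE2M count was 1 and the siURM1 count 4, and with protein-coding genes alone the siURM1 count was 4. In the reported fit SPOP and KCTD19 lay just under the threshold in siURM1 cells. Leaving out 1 library at a time gave 2 to 5 such members in siURM1 cells, 3 to 5 between siNAE1 and siURM1, and 2 to 5 between siNAE1 and siUBE2M cells. It gave 7 to 12 members higher and 9 to 14 lower in siURM1 cells, which have 2 libraries. The causes were not tested.

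Same-numbered libraries of different groups had correlations of their deviations from -0.0657 to 0.0787, and the others from -0.101 to 0.073, so the numbers were not taken to pair the samples. With the replicate block 8 members in siNAE1, 2 in siUBE2M and 2 in siURM1 cells had a 2-fold change, as without it, and 5 calls of named genes were lost. The level of SPOP per length moved from 20.1 FPKM to 20.2 CPM per kilobase. Depth limits the 16 untested members and KLHL31, KLHL32, KLHL41 and KCTD16. The genes of KLHL41 and KCTD14 also overlap another protein-coding gene on the same strand, and the part of this in their low counts was not tested.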
